A study of Arabidopsis thaliana with 6 samples.

Results

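Transcript levels of a group of phytochrome A signalling genes were compared between wild-type and hy5 mutant seedlings of Arabidopsis thaliana. The group was chosen by name as 5 loci, FHY1, FHL, FHY3, FAR1 and LAF1, and 4 of them were found among the 26984 genes of the expression tables. FAR1 is not analysed here. The samples were whole seedlings 7 days old from short-day growth, taken at ZT20, in the night (ZT counts hours from lights on). The 3 Col_0 libraries (numbered 1 to 3) came from wild type, and the 3 hy5 libraries (4 to 6) from the hy5-215 mutant, a single mutant allele of the bZIP transcription factor gene HY5. Levels are FPKM, fragment counts scaled by transcript length and by the mapped fragments of the library. Levels of different genes are set side by side on this per-length scale, although a pattern by gene length remained in Col_0 library 3 (below).

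Phytochrome A is the photoreceptor that plants use in far-red light, and it acts after moving from the cytoplasm into the nucleus. FHY1 and its homologue FHL are small proteins that carry light-activated phytochrome A into the nucleus. FHY3 and FAR1, transcription factors derived from transposases, activate the FHY1 and FHL promoters through a site known as the FBS. HY5 binds ACGT-containing elements and has been described as lowering that activation. LAF1 is a MYB transcription factor that promotes far-red responses.

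FHY1 (AT2G37678) and FHL (AT5G02200) are shown first by the 250 bases before their annotated transcript starts, because these hold the motifs that the described regulation concerns. The sequences run 5′ to 3′ on the gene's own strand and come from the RefSeq TAIR10.1 genome. Capitals mark the FBS, CACGCGC, and every ACGT core, including those within a G-box, CACGTG. The FHY1 sequence is the minus strand of chr2:15802794-15803043, and the FHL sequence is the plus strand of chr5:437115-437364.
FHY1: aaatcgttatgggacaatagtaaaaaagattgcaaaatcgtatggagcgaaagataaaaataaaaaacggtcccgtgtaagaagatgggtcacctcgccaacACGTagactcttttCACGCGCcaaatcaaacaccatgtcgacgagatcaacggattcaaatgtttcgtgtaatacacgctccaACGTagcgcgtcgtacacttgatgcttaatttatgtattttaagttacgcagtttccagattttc
FHL: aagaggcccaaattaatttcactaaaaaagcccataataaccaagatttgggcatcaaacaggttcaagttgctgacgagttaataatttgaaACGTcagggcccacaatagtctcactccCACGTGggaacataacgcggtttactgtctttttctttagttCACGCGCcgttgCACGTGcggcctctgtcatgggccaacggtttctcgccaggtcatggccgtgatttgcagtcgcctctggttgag
Motifs were searched on both strands from 250 bases before to 50 after the start. CACGCGC was found in 1.35% of 26983 promoters, CACGTG in 7.66% and ACGT in 49.9%. FHY1 held the FBS at position -134 and ACGT at -148 and -65. Its FBS and the nearest ACGT core were 10 bases apart. FHL held the FBS at -87, CACGTG at -129 and -75, and ACGT at -157, -128 and -74, of which the last pair lie inside the G-boxes. Its FBS lay 6 bases from the nearest ACGT core. Such a pair at most 10 bases apart occurred in 54 promoters, 0.2% of all. The limit of 10 bases equals the FHY1 gap and was not planned. It takes in both genes by construction, so the share does not measure how unusual they are. FHY3 held none of the motifs in this window, and LAF1 held ACGT at -38 alone. These are matches of letters, not measured binding.

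**Figure D1:**
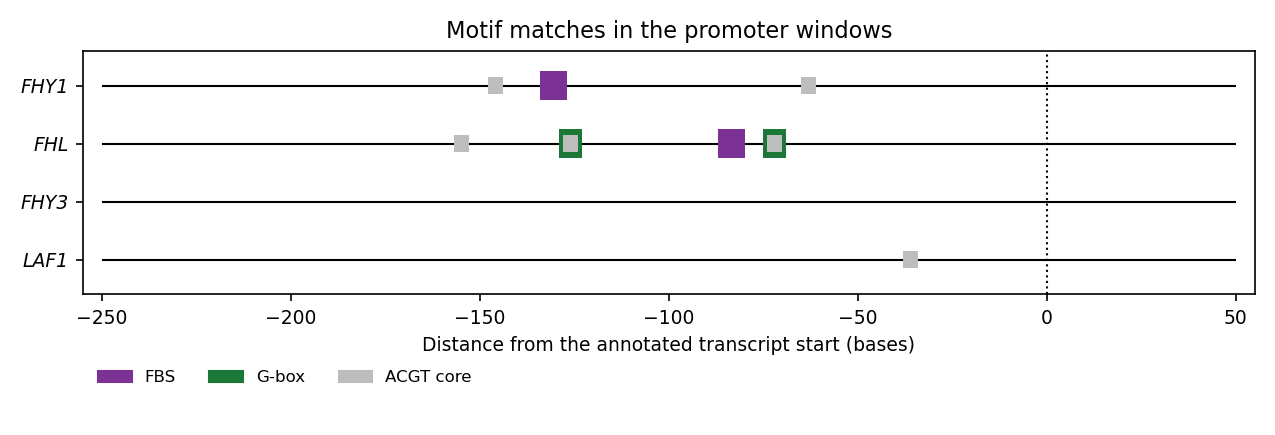
Motif matches in the promoter windows of FHY1, FHL, FHY3 and LAF1, by distance in bases from the annotated transcript start. FHY1 and FHL each hold 1 FBS with an ACGT core close to it, and the FHL core nearest the FBS lies inside a G-box.

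HY5 itself was at 13.4, 13.0 and 13.9 FPKM in Col_0 and at 3.04, 1.88 and 3.02 FPKM in hy5, so the libraries matched their labels. The FPKM sums per library were 528554 to 556418, and absolute read depth is unknown. The lowest values put relative depth at 0.936 to 1.03 times that of Col_0 library 1, in a search near equal depth only. Genes were tested where 3 or more libraries reached 1 FPKM, and of these 17205 genes 3915 (22.8%) passed limma's test at a Benjamini-Hochberg adjusted p under 0.05. Of the tested genes, 11.7% were higher and 11.1% lower in hy5. The count called was 2297 without hy5 library 4 and 2145 without hy5 library 6. Nothing in the labels ties libraries to separate plantings, and the p-values cover the spread among these libraries alone. Fold changes are on the log2(FPKM + 1) scale, which understates changes of low genes. Summed seed storage markers were 43.5 to 303 FPKM in Col_0 and 1.59 to 10.5 in hy5, with 4 of 7 tested markers called lower. For all 7 the hy5 libraries lay below Col_0 with an unadjusted limma p under 0.05. Over all tested genes, 40.2% lay apart in either direction and 35.95% had such a p. Of 4 tested root markers, PYK10 and CASP1 were higher in hy5, while COBL9 and EXPA7 did not pass, with log2 fold changes of -0.36 and -0.37. The summed root markers, 1417 to 1641 FPKM in Col_0 and 1980 to 2111 in hy5, were mostly PYK10 (1500.0 and 2009 FPKM on average). Summed green shoot markers overlapped, at 28210 to 32910 and 28270 to 32420 FPKM, with 1 of 4 higher. None of the markers was at 0 in all libraries, and the part of tissue composition in the results below was not tested.

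The 4 genes differed widely in level. Over the 6 libraries FHY3 was highest at 16.8 ± 2.24 FPKM (mean ± SD, n = 6), FHY1 followed at 4.96 ± 0.69, FHL at 1.72 ± 0.70 and LAF1 at 0.386 ± 0.16. This order held in each of the 6 libraries, and the ranges of neighbouring genes did not overlap. Among the tested genes, FHY3 stood at the percentile 68.9 of mean level, FHY1 at 32.3 and FHL at 9.04. Of the 3 members tested, 1 was called, FHL, beside 22.8% of all tested genes.

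**Figure D2:**
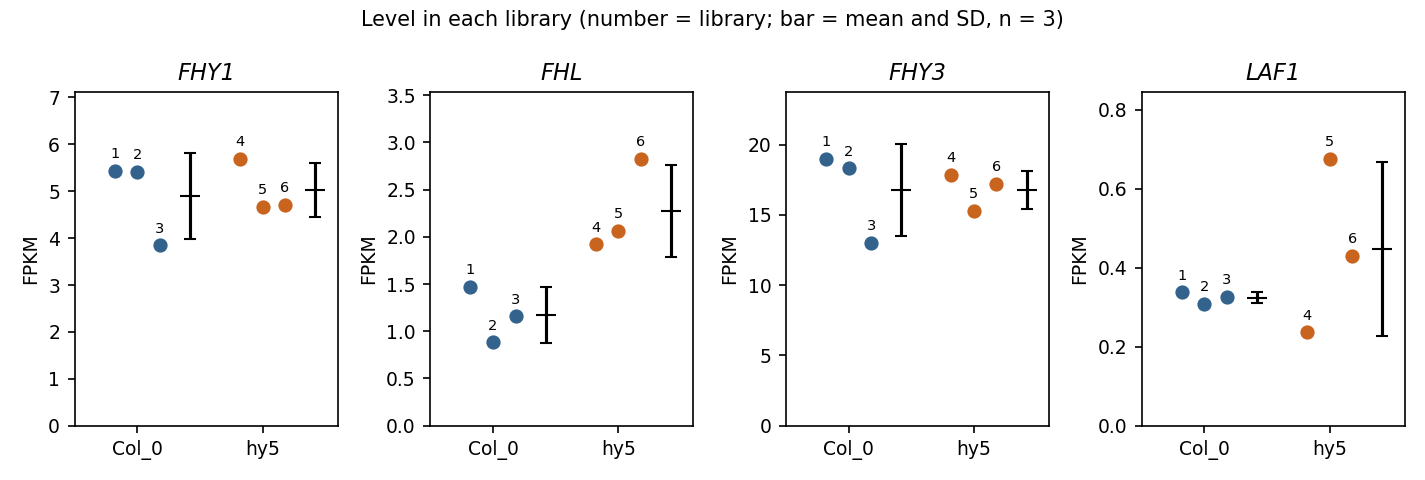
FPKM of FHY1, FHL, FHY3 and LAF1 in each library, with the mean and SD of 3 libraries per genotype. FHL is higher in every hy5 library (1.92 to 2.83) than in any Col_0 library (0.886 to 1.47), and the genotypes overlap for FHY1, FHY3 and LAF1. Genotypes lie apart for 40.2% of all tested genes.

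FHL was higher in hy5, at about 1.94 times its Col_0 mean. It was at 1.47, 0.886 and 1.16 FPKM in the Col_0 libraries and at 1.92, 2.06 and 2.83 FPKM in the hy5 libraries. Every hy5 library lay above every Col_0 library, with Col_0 library 2 the lowest and hy5 library 6 the highest. The genotypes lay apart in this way, in either direction, for 40.2% of all tested genes. The means were 1.17 ± 0.29 and 2.27 ± 0.49 FPKM (SD, n = 3 each), a log2 fold change of 0.59 (SE 0.16, 95% interval 0.25 to 0.93, limma adjusted p = 0.017). The call rests on these end libraries. Without Col_0 library 2 the log2 fold change was 0.49 (limma adjusted p = 0.061), and without hy5 library 6 it was 0.47 (limma adjusted p = 0.10). Col_0 library 2 also had the highest seed storage sum, 303 FPKM beside 43.5 and 109.9 in Col_0 libraries 1 and 3. Its root marker sum, 1417 FPKM, was the lowest of all libraries. In hy5 library 6 the seed storage and root sums were 1.62 and 2109 FPKM. They were 10.5 and 2111 FPKM in hy5 library 4, and 1.59 and 1980 FPKM in hy5 library 5. The part of these differences in the FHL level was not tested. In whole seedlings, more cells that express a gene and more RNA per cell cannot be told apart. FHL occupies chr5:437365-439019 on the plus strand of TAIR10.1, with 2 exons.

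FHY1, the better known member of the pair, did not pass the test. It was at 5.44, 5.41 and 3.85 FPKM in Col_0 and at 5.69, 4.66 and 4.71 FPKM in hy5. The genotypes overlapped, and Col_0 library 3 was the lowest of all 6. The means were 4.90 ± 0.91 and 5.02 ± 0.58 FPKM (SD, n = 3 each), and the log2 fold change was 0.04 (SE 0.14, 95% interval -0.27 to 0.35, limma adjusted p = 0.88). Without Col_0 library 3 the log2 fold change was -0.10, and without hy5 library 4 it was -0.04. FHY1 occupies chr2:15801418-15802793 on the minus strand, with 2 exons.

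The balance between the 2 shuttle genes lay further towards FHL in every hy5 library. FHL made up 21.3%, 14.1% and 23.2% of the summed FHY1 and FHL FPKM in Col_0, and 25.2%, 30.7% and 37.5% in hy5. The genotypes did not overlap, and the means were 19.5 ± 4.80% and 31.1 ± 6.16% (SD, n = 3 each). The log2 ratio of FHL to FHY1 was -2.08 ± 0.47 in Col_0 and -1.16 ± 0.42 in hy5, a difference of 0.92. With 1 FPKM added to each level, the difference was 0.55 and the genotypes overlapped. Without Col_0 library 2 the difference, with nothing added, was 0.65, and without hy5 library 6 it was 0.70. FHY1 did not pass the test, so the shares mostly restate the FHL values and add no separate support. The shares and ratios were not tested.

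PHYA, which encodes the photoreceptor that this pair carries, was higher in hy5. It was at 38.0, 42.3 and 36.5 FPKM in Col_0 and at 58.4, 49.3 and 61.0 FPKM in hy5, with no overlap. Its means were 38.9 ± 3.03 and 56.2 ± 6.11 FPKM (SD, n = 3 each), a log2 fold change of 0.52 (SE 0.10, limma adjusted p = 0.0026). The summed FPKM of FHY1 and FHL was 6.91, 6.30 and 5.01 in Col_0 and 7.61, 6.73 and 7.54 in hy5, where the genotypes overlapped. That sum equalled 18.2%, 14.9% and 13.7% of the PHYA FPKM in Col_0 and 13.0%, 13.6% and 12.4% in hy5. The hy5 percentages lay below those of Col_0, by 0.25 on the log2 scale, but Col_0 library 3 and hy5 library 5 were nearly equal. Without Col_0 library 1 the difference was -0.13. PHYA has 5111 nt of exon and FHY1 1055 nt, and Col_0 library 3 differed from the other Col_0 libraries by gene length (below). In that library PHYA deviated from the other Col_0 libraries by -0.13 on the log2 scale, FHY1 by -0.41 and FHL by 0.00. The part of gene length in these percentages was not tested. These are transcript levels, and protein was not measured.

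**Figure D3:**
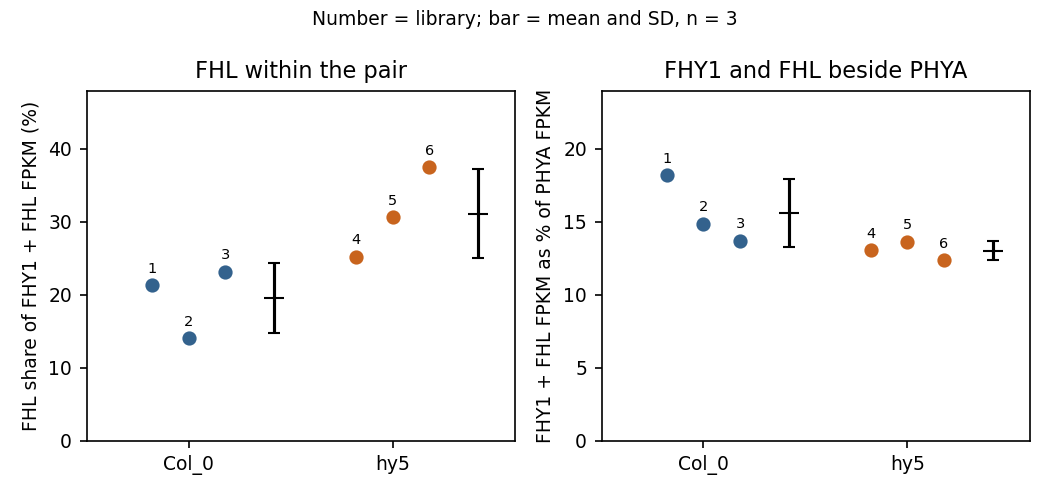
Left, the share of FHL in the summed FHY1 and FHL FPKM (%); right, that sum as a percentage of PHYA FPKM; points are libraries, bars the mean and SD of 3. FHL holds 14.1% to 23.2% of the pair in Col_0 and 25.2% to 37.5% in hy5, and the sum beside PHYA is 13.7% to 18.2% in Col_0 and 12.4% to 13.6% in hy5.

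FHY3 (AT3G22170), the activator, did not pass the test. It was at 19.0, 18.3 and 13.0 FPKM in Col_0 and at 17.9, 15.3 and 17.2 FPKM in hy5. The genotypes overlapped, and Col_0 library 3 was again the lowest. The means were 16.8 ± 3.28 and 16.8 ± 1.34 FPKM (SD, n = 3 each), and the log2 fold change was 0.02 (SE 0.13, 95% interval -0.27 to 0.30, limma adjusted p = 0.95). Without Col_0 library 3 it was -0.15 (limma adjusted p = 0.27), and its sign also turned under upper quartile scaling and quantile normalization. FHY3 was 3.14 to 3.66 times the FHY1 level in every library. FHY3 occupies chr3:7821997-7826196 on the minus strand, with 8 exons. Its transcript and that of FAR1 shared 83.2% identity over 101 nt at the closest stretch. For no member did blastn return another genome match of at least 95% identity over 30 nt. Its E-value limit of 1e-05 can miss matches near that length.

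LAF1 (AT4G25560) was low in every library. It was at 0.339, 0.309 and 0.327 FPKM in Col_0 and at 0.236, 0.676 and 0.431 FPKM in hy5. The hy5 libraries spread on both sides of Col_0, and the means were 0.325 ± 0.015 and 0.448 ± 0.22 FPKM (SD, n = 3 each). LAF1 fell below the filter and was tested only without one, where limma's adjusted p was 0.51. Its locus, chr4:13052503-13053742 on the plus strand with 3 exons, shares 82 nt of exon with ACYB-2 on the opposite strand. ACYB-2 was at 155.4 to 184.2 FPKM in Col_0 and 209.4 to 231.7 FPKM in hy5. Whether strand was used in counting is not given in the sources used here, and the part of ACYB-2 reads in the LAF1 level was not tested. The related gene MYB19 was also below the filter, and MYB45 was at 1.14 ± 0.38 and 1.43 ± 0.29 FPKM (SD, n = 3 each, limma adjusted p = 0.45).

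Each tested member was also set beside the genes whose log2 levels followed it most closely over the 6 libraries, as a description. They were the closest of all 17205 tested genes. A pattern or genotype difference that they share with the member follows from that choice, and their p-values add no support. For FHY1 these were GLE1 (Pearson r = 0.994), AT1G58025 (0.993) and AT2G33435 (0.992). For FHY3 they were EMB2753 (r = 0.996), ELF6 (0.992) and AT3G58220 (0.992). All 6 of these genes were lowest in Col_0 library 3, as FHY1 and FHY3 were, and none was called. For FHL they were GulLO3 (r = 0.997), ERF-1 (0.991) and AT1G31130 (0.991). GulLO3 was at 2.02, 1.36 and 1.68 FPKM in Col_0 and at 2.54, 2.75 and 3.31 FPKM in hy5, with a log2 fold change of 0.53 (limma adjusted p = 0.021). ERF-1, an ethylene responsive element binding factor, had a log2 fold change of 0.40 (limma adjusted p = 0.036). AT1G31130 was not called, with a log2 fold change of 0.20.

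Col_0 library 3 stood apart by gene length. Its median log2 difference from the other Col_0 libraries was 0.08 in the shortest of 5 equal bins of tested genes by exon length (123 to 1171 nt) and -0.21 in the longest (2594 to 16614 nt). It was the lowest Col_0 library for 51.2% of tested genes, and for 71.3% of those in the longest bin. FHY3, with 3340 nt of exon, lies in the longest bin, and its own deviation there was -0.49. FHY1, with 1055 nt, lies in the shortest bin, and its deviation was -0.41. FHL did not deviate in this library, at 0.00. In hy5, the same medians lay between -0.07 and 0.07 in every bin. The part of this length pattern in the members' values was not tested.

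**Figure D4:**
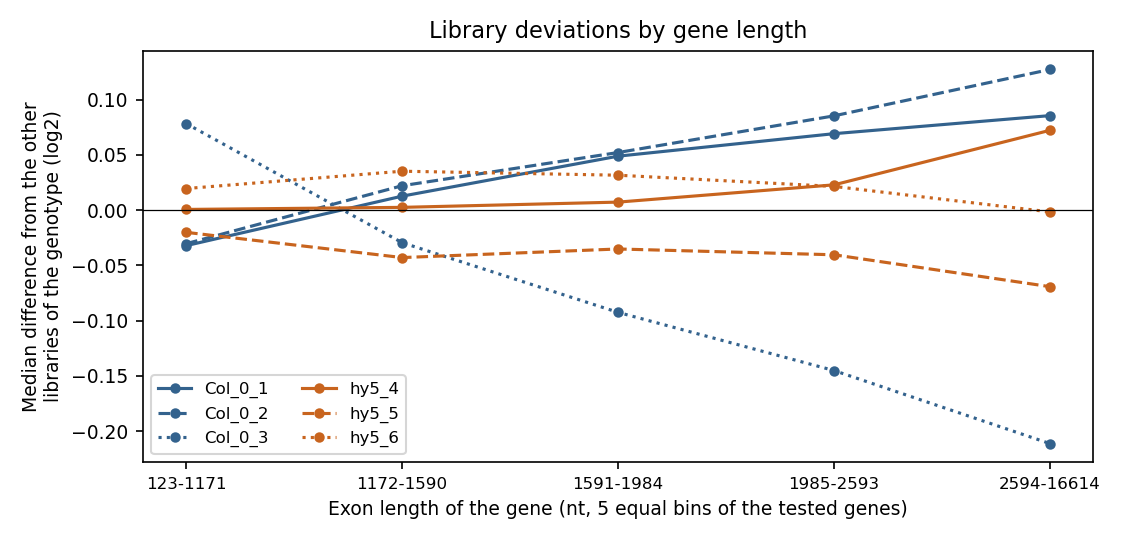
Median log2 difference of each library from the other libraries of its genotype, over 5 equal bins of the tested genes by exon length in nt. Col_0 library 3 falls from 0.08 in the shortest bin to -0.21 in the longest, while Col_0 libraries 1 and 2 rise to 0.09 and 0.13.

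Among 31 other genes of phytochrome A signalling, 29 were tested, 6 were higher in hy5, 3 were lower and 20 did not pass. That is 31.0% called beside 22.8% of all tested genes, with a median log2 fold change of 0.06 beside -0.00094 over all. PKS4, a phytochrome kinase substrate, was at 10.01, 10.12 and 8.46 FPKM in Col_0 and at 18.7, 14.9 and 20.9 FPKM in hy5. It was higher in every hy5 library (log2 fold change 0.86, limma adjusted p = 0.00039). PKS1 of the same family rose from 10.9 ± 1.32 to 15.7 ± 1.52 FPKM (log2 fold change 0.50, limma adjusted p = 0.0080), and PKS2 did not pass at 39.5 ± 9.05 and 50.1 ± 1.71 FPKM. Besides PHYA, the other genes that rose were SCL13 and PAT1, GRAS-family proteins, and SUB1, a calcium-binding protein, which were named after their values were seen. Their log2 fold changes were 0.42, 0.39 and 0.28 (limma adjusted p = 0.016, 0.016 and 0.030). Each of these 3 calls was lost when certain single libraries were left out, and the list had 3 higher genes without hy5 library 4 or without hy5 library 6. Over all 17205 tested genes, 1141 and 1061 were higher in these fits, beside 2010 with all libraries.

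HYH, the closest homologue of HY5, fell furthest in this list, from 25.0 ± 1.56 to 2.69 ± 0.72 FPKM (SD, n = 3 each, log2 fold change -2.83, limma adjusted p = 7.8e-09). SPA3, a partner of COP1 in the ubiquitin ligase that removes light-signalling factors, was at 28.2, 28.7 and 20.9 FPKM in Col_0 and at 18.2, 15.9 and 17.4 FPKM in hy5. Every hy5 library lay below Col_0 (log2 fold change -0.56, limma adjusted p = 0.0051). LAF3, an amidohydrolase-like protein, fell from 5.47 ± 0.30 to 3.21 ± 0.57 FPKM (limma adjusted p = 0.0054). Without Col_0 library 3, 8 genes of the list were lower, with SPA1, SPA4, HRB1, TZP and HMR added. Over all 17205 tested genes, 2360 were lower in that fit, beside 1905 with all libraries. Col_0 library 3 was the lowest Col_0 library for 22 of the 29 tested genes. HFR1, a bHLH factor of far-red signalling, was at 14.9 ± 2.16 and 17.1 ± 1.92 FPKM (limma adjusted p = 0.28). The most abundant genes that did not pass, beside PKS2, were NDPK2 at 150.9 ± 13.2 and 126.8 ± 18.8 FPKM and the F-box gene EID1 at 44.4 ± 6.29 and 49.8 ± 6.35 FPKM. PKS2 was called higher without Col_0 library 1 (limma adjusted p = 0.034), and NDPK2 was called lower without hy5 library 5 (limma adjusted p = 0.020). GI was below the filter, at 0.259 ± 0.049 and 0.848 ± 0.052 FPKM, with no overlap. Without a filter it was called higher (log2 fold change 0.55, limma adjusted p = 0.0033), which made 7 higher genes in the list.

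**Figure D5:**
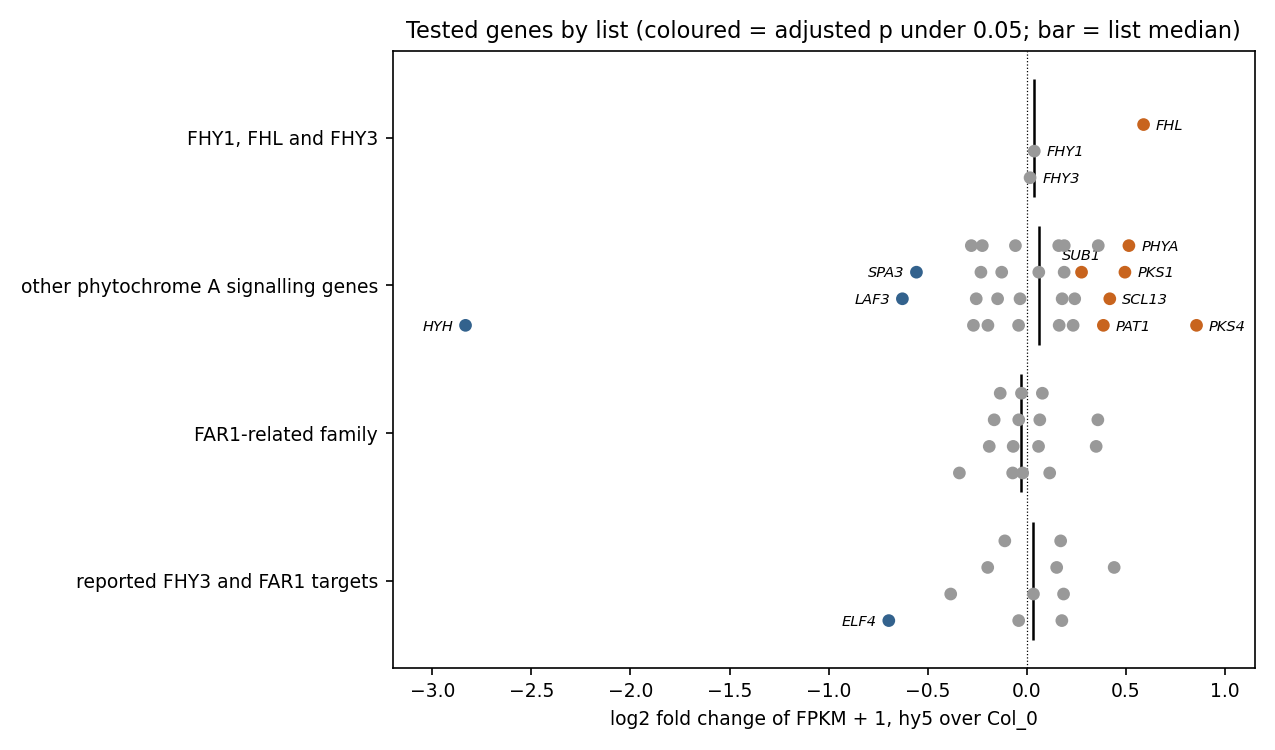
The log2 fold change of FPKM + 1, hy5 over Col_0, for each tested gene of 4 lists; colour marks an adjusted p under 0.05 and the bar is the list's median. FHL, PKS4 and PHYA lie to the right and HYH, SPA3, LAF3 and ELF4 to the left, and no gene of the FAR1-related family is coloured.

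The FAR1-related family, to which FHY3 belongs, showed no called member. Of 16 relatives, 15 were tested, limma called 0 (beside 22.8% of all tested genes), and 3 had an unadjusted p under 0.05 (20% beside 35.95% of all tested genes). These 3 were FRS6, FRS9 and AT3G59470, with log2 fold changes of 0.35, 0.36 and -0.34, and they were named after their values were seen. FRS9, at 3.89 ± 0.65 and 5.24 ± 0.071 FPKM (limma adjusted p = 0.068), was called under median ratio scaling, quantile normalization and without Col_0 library 2. The median size of change, ignoring sign, was 0.08 on the log2 scale beside 0.19 over all tested genes. The most abundant relatives were FRS12 at 17.3 ± 0.97 and 18.05 ± 0.47 FPKM, FRS8 at 10.9 ± 1.09 and 10.3 ± 0.64 and FRS3 at 9.54 ± 0.81 and 9.26 ± 1.07. Col_0 library 3 was the lowest Col_0 library for 11 of the 15.

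Of 15 genes reported elsewhere as targets of FHY3 or FAR1, 11 were tested, and by limma 1 was lower in hy5 and 0 were higher. That is 9.09% called beside 22.8% of all tested genes, and 3 (27.3%) had an unadjusted p under 0.05 beside 35.95% of all tested genes. The one that fell was ELF4, an evening gene of the circadian clock. It was at 6.27, 5.65 and 6.18 FPKM in Col_0 and at 3.75, 3.27 and 3.02 FPKM in hy5. The genotypes did not overlap (log2 fold change -0.70, SE 0.13, limma adjusted p = 0.0017). CCA1, a morning clock gene, was at 41.6 ± 10.05 and 31.1 ± 2.21 FPKM and did not pass (limma adjusted p = 0.10), but was called lower without Col_0 library 3. PAR1, named after its values were seen, was not called (limma adjusted p = 0.10) but was called higher without Col_0 library 3 or hy5 library 5. HEMB1, a chlorophyll precursor enzyme, was at 86.6 ± 5.59 and 80.3 ± 8.32 FPKM, and MIPS1, an inositol synthesis enzyme, was at 61.8 ± 10.2 and 53.6 ± 8.01 FPKM. Neither passed.

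The genes that share promoter motifs with FHY1 and FHL were counted in the same contrast. Of 299 tested genes with the FBS in the window, 10% were higher and 7.69% lower, beside 11.7% and 11.1% of all tested genes. Of 1535 tested genes with a G-box in the window, which FHL holds and FHY1 does not, 12.4% were higher and 11.9% lower. Of the 48 tested genes with the FBS and an ACGT core at most 10 bases apart, 3 were higher (6.25%), FHL among them, and 2 were lower (4.17%). The 10-base limit is the gap in FHY1, as above. These shares were not tested.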

How the data were processed

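RNA-seq was made from 6 seedling libraries, grouped by title. Per the file headers, the authors deposited 1 FPKM value per gene and library. Tools listed in the submitters' processing notes are DESeq 1.18.0, Cufflinks, Bowtie2, TopHat, HISAT2 2.2.1.0 and Trimmomatic 0.36, with TAIR10 as the build and no role or order for any of them. The sources used here do not give how strand and shared reads were treated. FPKM holds no read counts, so the counting error of low genes such as LAF1 is unknown.

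Values were transformed to log2(FPKM + 1), and genes that reached 1 FPKM in 3 or more libraries were compared between genotypes with limma 3.58.1 in R 4.3.3 (trended, robust, genotype as the only term). The Benjamini-Hochberg adjustment ran over all 17205 tested genes, and the threshold was 0.05. The fit was tested on simulated data with few planted changes and independent noise, so that test gives no error rate for these libraries. Loci and promoters came from the RefSeq TAIR10.1 genome and annotation, and similar sequences from blastn 2.17.0. Other steps used Python 3.11.15, pandas 2.3.3, NumPy 2.4.6 and matplotlib 3.10.9. FAR1 and COP1 are not analysed here, nor are protein sequences.

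The members and gene lists were chosen with earlier results of these data known. The genes named are the members, HY5, PHYA and HFR1, up to 6 called genes per list with the smallest adjusted p, up to 3 uncalled genes with the highest mean, and the 3 genes most like each tested member. Alternatives were other pseudocounts, filters and scalings, leaving out each library, and other promoter windows, of which 1000 bases was chosen after seeing the data. The limit of 10 bases between motifs was not planned.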

Additional observations from a re-analysis of the deposited data

How the results depend on the processing

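FHL was higher in hy5 under every alternative that tested it, and its call was lost without Col_0 library 2 or hy5 library 6, with log2 fold changes of 0.47 to 0.69 when single libraries were left out. At a filter of 5 FPKM, FHL was not tested and 0 members were called; leaving out a library gave 0 to 1. FHY1 ranged from -0.098 to 0.11 and FHY3 from -0.15 to 0.11 when single libraries were left out, and FHY3 was -0.0021 under upper quartile scaling and -0.0058 under quantile normalization. The cause of these changes was not tested. Leaving out a library gave 2145 to 4415 called genes, 1061 to 2055 higher and 1084 to 2360 lower. It gave 3 to 6 higher and 3 to 8 lower genes among the other phytochrome A signalling genes, 0 to 1 higher and 1 to 2 lower among the reported targets, and 0 to 1 higher in the FAR1-related family. That family had 1 higher gene under median ratio scaling and 1 under quantile normalization. Uncalled genes whose sign turned when a library was left out ranged as follows: FRS1 from -0.025 to 0.21, FRS3 from -0.11 to 0.037, FRS4 from -0.072 to 0.14, FRS10 from -0.15 to 0.075, AT2G43280 from -0.11 to 0.12, AT3G07500 from -0.035 to 0.18, OWL1 from -0.10 to 0.052, MED25 from -0.042 to 0.13, PIF1 from -0.23 to 0.069, ISA2 from -0.13 to 0.13, PHR1 from -0.047 to 0.30 and WRKY28 from -0.12 to 0.024. With 1000 bases before the start, 2 members held a G-box. No paired analysis was possible because the numbers 1 to 3 of Col_0 and 4 to 6 of hy5 share none. Read depth is unknown, so the counting error of low genes could not be given.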
